A study of Danio rerio with 2 samples.

Results

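Synaptic vesicle and active zone genes encode the proteins that fill the presynaptic terminal, hold vesicles at the release site and fuse them with the membrane. A list of 35 zebrafish symbols was taken for this group, and 33 of them were in the gene table, which holds 32057 gene IDs. The symbols *sv2c* and *bsna* were not in the table used here. The symbol *cplx2* stands for 2 gene IDs, whose UMIs were summed, so that the 33 genes cover 34 gene IDs. The list is a list of symbols, and no gene of it was used to sort cells into types.

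Cells of 3 dpf (days post-fertilization) larvae, taken from whole brains, gave 2 single-cell libraries. The first came from siblings that the labels give as wild type (the sibling library), and the second from homozygous mutants for the smu2 allele of *rb1* (the mutant library). *rb1* encodes the retinoblastoma protein, which restrains entry into the cell cycle. Both were made with the same 3′ kit, the labels name no treatment, each genotype is 1 library, and the number of pooled larvae is not given in the sources used here.

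Siblings and mutants in what follows stand for these libraries. With 1 library per genotype there is no replicate check, so no difference between genotypes was tested and no p-value is given. Genotype and library cannot be told apart. Intervals are 95% intervals of counting error only, exact Poisson for a level, exact conditional binomial for a ratio of levels, and Clopper-Pearson for a share. Levels are CPM, the UMIs of a gene scaled to the same total for every class, where a UMI marks 1 captured RNA molecule.

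At a chemical synapse, the vesicle protein synaptobrevin (VAMP) pairs with syntaxin and SNAP25 of the plasma membrane, and this SNARE bundle drives fusion. Complexin clamps and assists the bundle, and synaptotagmin triggers fusion when it binds calcium. Bassoon, Piccolo, RIM and ELKS build the active zone, and neurexins span the cleft toward the postsynaptic partner. Photoreceptors and bipolar cells of the vertebrate retina release transmitter tonically from ribbon synapses. Retinal ribbon synapses of mammals are known for syntaxin 3 in place of syntaxin 1 and for complexins 3 and 4 in place of complexins 1 and 2.

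Cells were sorted by marker genes, and each name below stands for cells that passed such a gate. Photoreceptor-like cells needed 3 genes of a photoreceptor list, bipolar-like cells *vsx1* or *gnb3a* and at least 2 genes of a bipolar list. Amacrine-like cells needed *tfap2a* or *tfap2b* and retinal ganglion-like cells *rbpms2a* or *rbpms2b*, each with a further marker and a UMI of the pan-neuronal *elavl3* or *elavl4*. Brain neurons are 6 classes with *elavl3* or *elavl4* and no retinal gate: sensory or motor, *dlx* GABAergic, other GABAergic, glutamatergic of midbrain or thalamus, other glutamatergic, and other neurons. The class of other neurons needed only 2 UMIs of *elavl3* or *elavl4* and no marker of a region. Retinal neurons that missed the retinal gates can be among these cells. The sibling library had 339 photoreceptor-like cells, 748 bipolar-like cells, 344 amacrine-like cells, 101 ganglion-like cells and 2552 brain neurons. The mutant library had 473, 666, 478, 157 and 3030 of them, in the same order.

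There were 8557 barcodes with 48852464 UMIs in total for siblings and 8799 with 47291418 for mutants. After the filters 7539 and 7873 cells were left, at medians of 3315 and 3595 UMIs per cell, and 14 barcodes were shared by the kept cells of both. The labels name whole brain and neurons, yet 1532 and 1774 cells passed a retinal gate and 1316 and 925 passed a non-neural gate. Of the 17 photoreceptor markers in the table, 17 (siblings) and 16 (mutants) were detected in photoreceptor-like cells, and of the 10 bipolar markers 10 and 9 in bipolar-like cells. Cells that passed both a non-neural gate and a neuron or retinal gate were left out, 410 in siblings and 60 in mutants. The UMIs of *rb1* numbered 174 in each library (6.05 and 5.46 CPM), and the lesion itself cannot be seen in 3′ counts.

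As a sum, the genes were higher in every neuron class than in glia-like, precursor and non-neural cells of both libraries. The summed level in brain neurons of the sibling library was 5376 CPM (interval 5326 to 5427), against 145.2 CPM in radial glia-like cells, 104.5 CPM in mitotic precursors and 166.3 CPM in non-neural cells. Among the 10 neuron classes of that library, bipolar-like cells had the highest sum with 11205 CPM, and the classes labelled other glutamatergic (8590 CPM) and other GABAergic (8499 CPM) followed with overlapping intervals. Other neurons had the lowest sum with 3310 CPM. Photoreceptor-like cells stood at 4255 CPM and amacrine-like cells at 5360 CPM, whose interval overlapped that of the brain neurons.

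**Figure D1:**
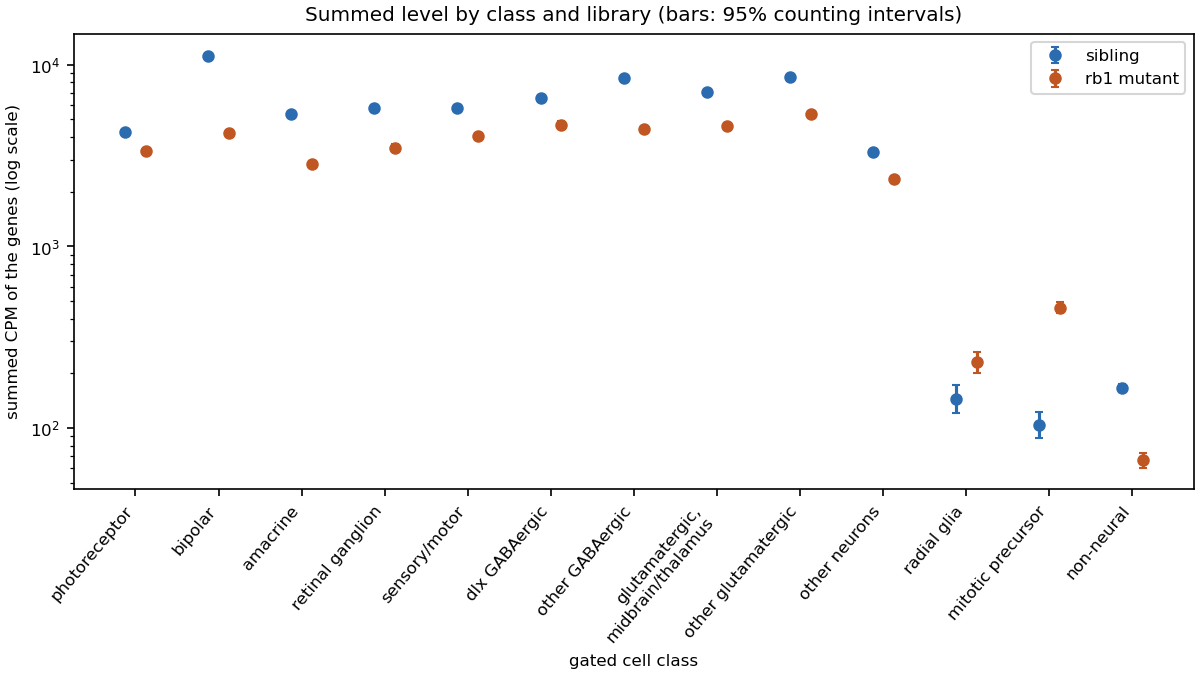
Summed CPM of the 33 genes (log axis) in each gated class, with a point for the sibling library (blue) and a point for the mutant library (orange) and bars for 95% counting intervals. All 10 neuron classes and the non-neural cells lie lower in the mutant library, while mitotic precursors lie at 104.5 CPM in siblings and 460.8 CPM in mutants.

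In the mutant library the sum was lower in each of the 10 neuron classes, with intervals of the ratio below 1 in all 10. Brain neurons had 3245 CPM there, a ratio of mutant to sibling of 0.604 (0.595 to 0.612). Without thinning, bipolar-like cells had the lowest ratio, from 11205 to 4213 CPM (0.376, 0.365 to 0.387), and photoreceptor-like cells the highest, from 4255 to 3370 CPM (0.792, 0.765 to 0.820). Amacrine-like cells had a ratio of 0.532 (2850 CPM in the mutant library) and ganglion-like cells 0.608 (3504 CPM). Among the brain classes the ratio ran from 0.523 in other GABAergic neurons to 0.711 in other neurons. A lower sum was not limited to neurons. Non-neural cells, used below as the reference for free RNA, went from 166.3 to 66.5 CPM (0.400, 0.357 to 0.448). Few cells of 1 library weigh on this value. With each cell thinned to 1000 UMIs, 28 of 1246 non-neural cells in siblings held 3 to 22 UMIs of these genes. None of 913 in mutants held more than 2. Whether the 28 are mixed droplets was not tested. The part of free RNA in the neuron classes was not tested.

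The sum was also lower at equal depth. With each cell thinned to 1000 UMIs and shallower cells left out, the ratio of the sum was 0.630 in brain neurons, 0.411 in bipolar-like cells and 0.806 in photoreceptor-like cells, and it ranged from 0.411 to 0.872 over the 10 classes. The highest was that of *dlx* GABAergic neurons (0.772 to 0.984), whose interval overlapped that of photoreceptor-like cells (0.752 to 0.863). At that depth a brain neuron carried a median of 5 UMIs of these genes in the sibling library (2112 cells) and of 2 in the mutant library (2506 cells). The share of brain neurons with at least 3 such UMIs was 66.0% (63.9 to 68.0) in the sibling library and 49.8% (47.8 to 51.8) in the mutant library. Free RNA in droplets gives UMIs in cells that do not express a gene, and non-neural cells serve as the reference: 2.25% of 1246 such cells reached 3 UMIs in siblings and 0 of 913 in mutants, which allows a share of up to 0.403%. The reference leaves out non-neural cells that also passed a neuron or retinal gate, 410 in siblings and 60 in mutants. It may therefore understate free RNA, and not equally in both libraries. It may also overstate it. In siblings *syt5b* had 17.0 CPM in non-neural cells, against 1.40 CPM (1 UMI) in sensory or motor neurons and no UMI in ganglion-like cells. The sum in mitotic precursors of siblings (104.5 CPM) lay below that in non-neural cells (166.3 CPM). Which applies was not tested. At 1000 UMIs a bipolar-like cell carried a median of 10 UMIs of these genes (quartiles 4 and 19) in siblings and 3 (2 and 7) in mutants. The median depths of non-neural cells were 5108.5 and 5689 UMIs, against 3243 and 3312 for brain neurons.

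**Figure D2:**
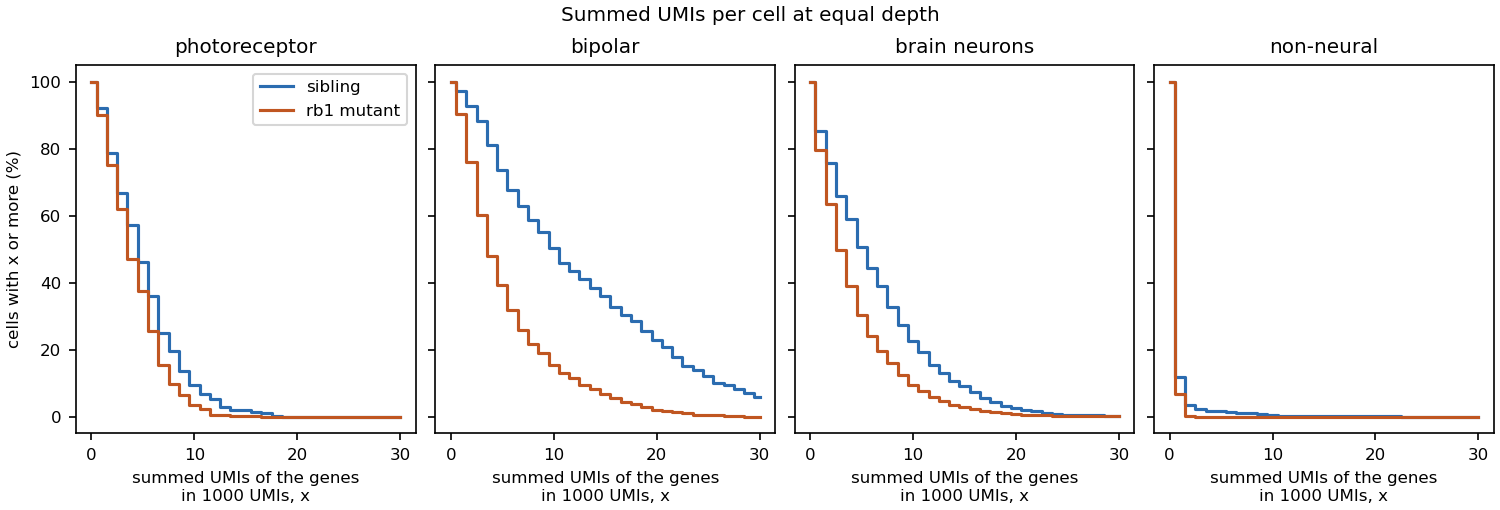
Percentage of cells (vertical axis) with at least x summed UMIs of the 33 genes (horizontal axis, 0 to 30) after thinning each cell to 1000 UMIs, in 4 groups of cells, with 1 line per library. The mutant line runs below the sibling line in bipolar-like cells and brain neurons, where 49.8% against 66.0% of cells reach 3 UMIs, and in photoreceptor-like cells 62.0% against 67.0% do.

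Cells with cell cycle genes were more frequent in the mutant library. Brain neurons with at least 2 of 6 mitotic genes made up 2.74% of the class in siblings and 11.8% in mutants, bipolar-like cells 0.936% and 23.3%, and photoreceptor-like cells 16.2% and 22.4%. Such cells had lower sums than the rest of their class. In brain neurons they had 282.5 CPM in the sibling and 1100 CPM in the mutant library. The values were 297.2 and 2429 CPM in bipolar-like cells and 1473 and 1708 CPM in photoreceptor-like cells, in the same order. Without cells with mitotic genes, brain neurons had 5754 and 3834 CPM (ratio 0.666) and bipolar-like cells 11675 and 5295 CPM (ratio 0.454). The summed level of *elavl3* and *elavl4* in brain neurons was 3283 CPM in siblings and 3014 CPM in mutants. The part of cell cycle state in the remaining difference was not tested.

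Gene by gene in brain neurons, 32 of the 33 genes had at least 20 UMIs over both libraries. Of these, 24 were at least 1.5-fold lower in the mutant library, where 20.4% of the 13513 genes with as many UMIs were, and all 24 had intervals below 1. There were 2 at least 1.5-fold higher, beside 9.78% of all genes. The median ratio was 0.592 over the 32 genes and 0.894 over all genes, so the typical gene of the class also lay lower by CPM. This shift was −0.16 on the log2 scale in brain neurons over genes with at least 100 UMIs, and −0.14 in photoreceptor-like, −0.19 in bipolar-like, −0.17 in amacrine-like and −0.02 in ganglion-like cells. Relative to it, the ratio of the sum in brain neurons was 0.673.

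**Figure D3:**
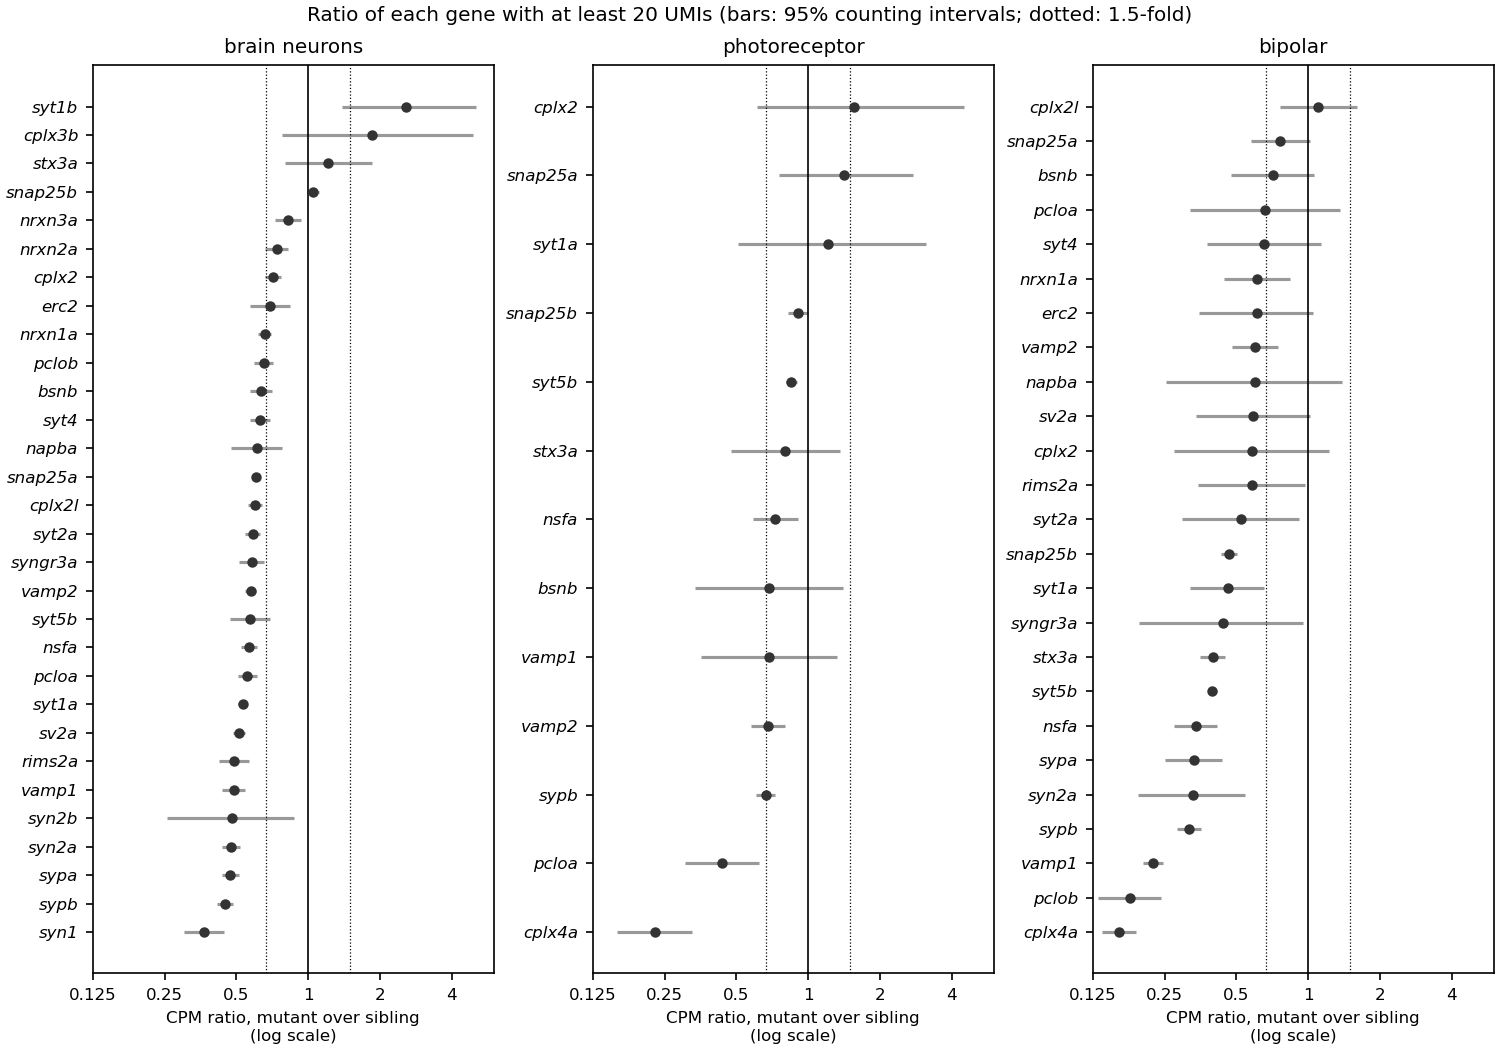
Ratio of CPM, mutant over sibling (log axis), of 30 of the 32 genes with at least 20 UMIs in brain neurons and of those in photoreceptor-like and bipolar-like cells, with bars for 95% counting intervals, a solid line at 1 and dotted lines at 1.5-fold. In brain neurons 22 of the 30 genes shown lie beyond the lower dotted line, with *syn1* lowest at 0.366 and *syt1b* highest at 2.56.

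The vesicle-coating synapsins lay among the lowest ratios of brain neurons. *syn1* (ENSDARG00000060368), which tethers vesicles in the reserve pool, had 328 UMIs (39.9 CPM) in siblings and 154 UMIs (14.6 CPM) in mutants, a ratio of 0.366 (0.301 to 0.445). At 1000 UMIs, 3.98% of brain neurons had a *syn1* UMI in siblings and 1.88% in mutants. *syn2a* went from 163.3 to 77.3 CPM (0.474) and *syn2b* from 3.77 to 1.81 CPM (0.478, 0.255 to 0.874), the latter on 31 and 19 UMIs. All 3 synapsins were thus below 0.5 in the pooled brain neurons. These pooled ratios also depend on the mix of classes, and other neurons gave 1351 of 2552 cells in siblings and 1884 of 3030 in mutants. Within other neurons the relative fall was smaller, with *syn1* from 15.7 to 9.38 CPM and *syn2a* from 81.7 to 45.3 CPM. There *syn2b* had 6 UMIs in each library.

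Synaptophysins, abundant membrane proteins of the vesicle, showed the same direction. *sypb* (ENSDARG00000002230) had 1955 UMIs (238.0 CPM) in siblings and 1122 UMIs (106.6 CPM) in mutants, a ratio of 0.448 (0.416 to 0.482), and the share of cells with a UMI at equal depth was 20.4% and 10.5%. *sypa* went from 198.3 to 93.6 CPM (0.472). The vesicle glycoprotein *sv2a* went from 325.3 to 166.9 CPM (0.513), and *syngr3a*, a synaptogyrin, from 77.7 to 45.0 CPM (0.580).

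The SNARE genes were not uniform. *snap25a* (ENSDARG00000020609) had 5355 UMIs (652.0 CPM) in siblings and 4155 UMIs (394.8 CPM) in mutants, a ratio of 0.606 (0.581 to 0.631), and 40.8% and 30.2% of cells had a UMI at equal depth. Its paralog *snap25b* (ENSDARG00000058117) had 2170 UMIs (264.2 CPM) and 2907 UMIs (276.2 CPM), a ratio of 1.05 (0.989 to 1.11), with 19.6% and 22.4% of cells beside 2.09% and 0.219% of non-neural cells. The intervals of the 2 paralogs do not overlap, and both encode SNAP25, the plasma membrane SNARE. *vamp2* (ENSDARG00000056877), the main synaptobrevin of the forebrain in mammals, went from 392.6 to 225.7 CPM (0.575, 0.545 to 0.606; 30.8% and 20.9% of cells), and *vamp1* from 100.9 to 49.3 CPM (0.489). *stx3a* was scarce in brain neurons, at 4.87 CPM on 40 UMIs and 5.89 CPM on 62 UMIs (1.21, 0.800 to 1.85).

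Among the proteins that handle the SNARE bundle, *nsfa*, the ATPase that takes the bundle apart, went from 189.3 to 106.9 CPM (0.565). *napba*, its SNAP adaptor, went from 18.9 to 11.5 CPM (0.609).

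Of the calcium sensors, *syt1a* (ENSDARG00000030614), the fast sensor of synchronous release, had 4710 UMIs (573.4 CPM) in siblings and 3207 UMIs (304.7 CPM) in mutants, a ratio of 0.531 (0.508 to 0.556), with 33.0% and 21.1% of cells at equal depth. Its ratio differed between brain classes: 0.441 in other GABAergic and 0.560 in sensory or motor neurons, but 0.989 (0.829 to 1.18) in *dlx* GABAergic neurons. *syt2a* went from 211.8 to 123.8 CPM (0.584), *syt4* from 124.1 to 78.0 CPM (0.629) and *syt5b* from 32.3 to 18.4 CPM (0.571). The scarce *syt1b* went the other way, with 14 UMIs (1.70 CPM) in siblings and 46 UMIs (4.37 CPM) in mutants, a ratio of 2.56 (1.39 to 5.05). It was the sole gene of the list whose interval in brain neurons lay above 1.

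Complexins and active zone scaffolds covered a wide range. *cplx2l* went from 240.1 to 143.9 CPM (0.5995) and *cplx2* from 157.1 to 111.7 CPM (0.711, not past 1.5-fold). *cplx3b* was counted as higher on 8 and 19 UMIs (ratio 1.85, 0.775 to 4.89), an interval that includes 1, and *cplx4a*, on 10 and 9 UMIs, was the gene below the minimum. Of the scaffolds, *rims2a*, which links vesicles to calcium channels, had 0.489, *pcloa* 0.555, *bsnb* 0.636, *pclob* 0.651 and *erc2*, an ELKS gene, 0.690 (0.567 to 0.839). Of the neurexins, *nrxn1a* had 0.656, *nrxn2a* 0.737 and *nrxn3a* 0.820 (0.723 to 0.929), the last 2 not past 1.5-fold. At 1000 UMIs per cell *cplx3b* had a ratio of 0.843 and *syt1b* one of 1.85 (0.594 to 6.81), and neither reached 20 UMIs.

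The SNAP25 paralogs also differed in ratio in single brain classes, but in sensory or motor neurons their intervals overlapped (*snap25a* 0.621 to 0.775, *snap25b* 0.745 to 1.02). The *snap25a* ratio was below 1, with its interval, in all 6 brain classes, from 0.517 in other GABAergic to 0.725 in midbrain or thalamus glutamatergic neurons. The *snap25b* ratio was 0.872 in sensory or motor neurons, 1.15 in *dlx* GABAergic, 0.959 in other GABAergic, 1.14 in midbrain or thalamus glutamatergic and 0.990 in other glutamatergic neurons, each with an interval that included 1. In other neurons it was 1.23 (1.12 to 1.34), on 776 and 1448 UMIs. The part of retinal neurons that missed their gates in this value was not tested. As a share of the UMIs of the pair, *snap25b* made up 28.8% (27.8 to 29.9) in brain neurons of the sibling and 41.2% (40.0 to 42.3) in those of the mutant library. In amacrine-like cells the share was 65.6% and 77.8%, and in ganglion-like cells 68.8% and 76.4%. It went the other way in bipolar-like cells, with 94.4% (93.2 to 95.4) and 91.2% (89.4 to 92.7). Photoreceptor-like cells had 97.8% and 96.6%, with overlapping intervals.

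The summed level of photoreceptor-like cells was 0.791-fold (0.770 to 0.813) that of brain neurons in siblings and 1.04-fold (1.01 to 1.07) in mutants, or 0.994-fold at 1000 UMIs. The sum of photoreceptor-like cells rested on a small part of the list. In the sibling library *syt5b* alone gave 49.0% of their 5815 UMIs of these genes, *sypb* 17.6% and *snap25b* 12.3%, and in the mutant library the same 3 genes gave 52.6%, 14.7% and 14.1% of 6734 UMIs. With *syt5b* left out of both sums, photoreceptor-like cells had 0.406-fold and 0.495-fold the level of brain neurons. In brain neurons no gene gave more than 12.2%, the share of *snap25a*. These are shares of 3′ tags, 1 per captured molecule, and depend on how well each 3′ end is annotated.

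Compared with brain neurons of the same library, 5 of 31 genes were at least 2-fold higher in photoreceptor-like cells of the sibling library (13.3% of all genes) and 23 at least 2-fold lower (39.6%). In the mutant library the counts were 5 (10.1% of all genes) and 24 (36.8%) of 32. The median ratio of the list was 0.024 in siblings and 0.068 in mutants, against 0.693 and 0.702 over all genes. The genes higher in photoreceptor-like cells of both libraries included *cplx4a*, *syt5b*, *stx3a* and *sypb*, and *snap25b*, at 1.98-fold (1.82 to 2.16) and 1.72-fold (1.60 to 1.85), stood just below the limit.

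*syt5b* (ENSDARG00000011640), a synaptotagmin, had 2850 UMIs (2085 CPM) in photoreceptor-like cells of the sibling library against 265 UMIs (32.3 CPM) in brain neurons, a ratio of 64.6 (57.0 to 73.6). In the mutant library the levels were 1774 and 18.4 CPM, a ratio of 96.2. At 1000 UMIs 78.3% and 73.8% of photoreceptor-like cells had a *syt5b* UMI, against 1.44% and 0.438% of non-neural cells. *cplx4a* (ENSDARG00000059978), a complexin, had 94.4 CPM on 129 UMIs and 21.5 CPM on 43 UMIs, at 77.5-fold (40.8 to 165.5) and 25.2-fold (12.1 to 58.7) the level in brain neurons. Its share of cells at equal depth was 6.85% and 1.29%, beside 0.642% and 0 of 913 in non-neural cells.

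*stx3a* (ENSDARG00000001880), a syntaxin 3 gene, had 21.2 CPM on 29 UMIs and 17.0 CPM on 34 UMIs in photoreceptor-like cells, 4.36-fold (2.61 to 7.21) and 2.89-fold (1.84 to 4.46) the level in brain neurons. Its level in non-neural cells was 11.6 and 10.8 CPM, which is 1.84-fold (1.16 to 2.82) and 1.58-fold (1.01 to 2.43) lower. *sypb* stood at 747.8 and 495.4 CPM, 3.14-fold and 4.65-fold, with a UMI in 49.7% and 35.4% of cells at equal depth.

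Some of the genes most abundant in brain neurons were scarce in photoreceptor-like cells. *syt1a* had 9 and 16 UMIs (6.59 and 8.01 CPM), beside 12.3 and 4.48 CPM in non-neural cells, and *snap25a* had 16 and 33 UMIs (11.7 and 16.5 CPM), beside 11.4 and 5.31 CPM. The interval of the ratio to non-neural cells included 1 for *syt1a* and for *sv2a* (2.93 and 1.501 CPM, on 4 and 3 UMIs) in both libraries, and for *snap25a* in siblings only. *erc2* had no UMI in the sibling library against 27.4 CPM in brain neurons, which is at least 12.5-fold lower counting 3 UMIs for the class, and 3 UMIs in the mutant library. In all, 11 of 33 genes in siblings and 16 in mutants exceeded the non-neural level with their interval, 20 and 15 had intervals that included 1, 2 and 1 had no UMI in either class, and *syt2a* lay below it in the mutant library. No share over all genes stands beside this count or the next, and neither is read as particular to the list. In brain neurons 31 of 33 genes exceeded the non-neural level in each library. The others were *stx3a* and *cplx4a*. *stx3a* lay below it in both (0.422 and 0.546), and *cplx4a* lay below it in siblings (0.335) with an interval that included 1 in mutants. The fold values of these 2 genes over brain neurons given above thus rest on levels not above the reference. For *stx3a* that reference need not be free RNA. It was 11.6 and 10.8 CPM in siblings and mutants, while other GABAergic neurons had 2.17 and 1.00 CPM. Whether non-neural cells express *stx3a* themselves was not tested.

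Other genes of release were shared between both kinds of cells. *vamp2* had 214.4 and 145.6 CPM in photoreceptor-like cells, 0.546-fold and 0.645-fold the level in brain neurons, and *nsfa* 122.2 and 89.1 CPM (0.645-fold and 0.833-fold). The scaffold *pcloa* had 60.7 and 26.5 CPM (0.440-fold and 0.346-fold), while *pclob* had 2.93 and 6.51 CPM on 4 and 13 UMIs.

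**Figure D4:**
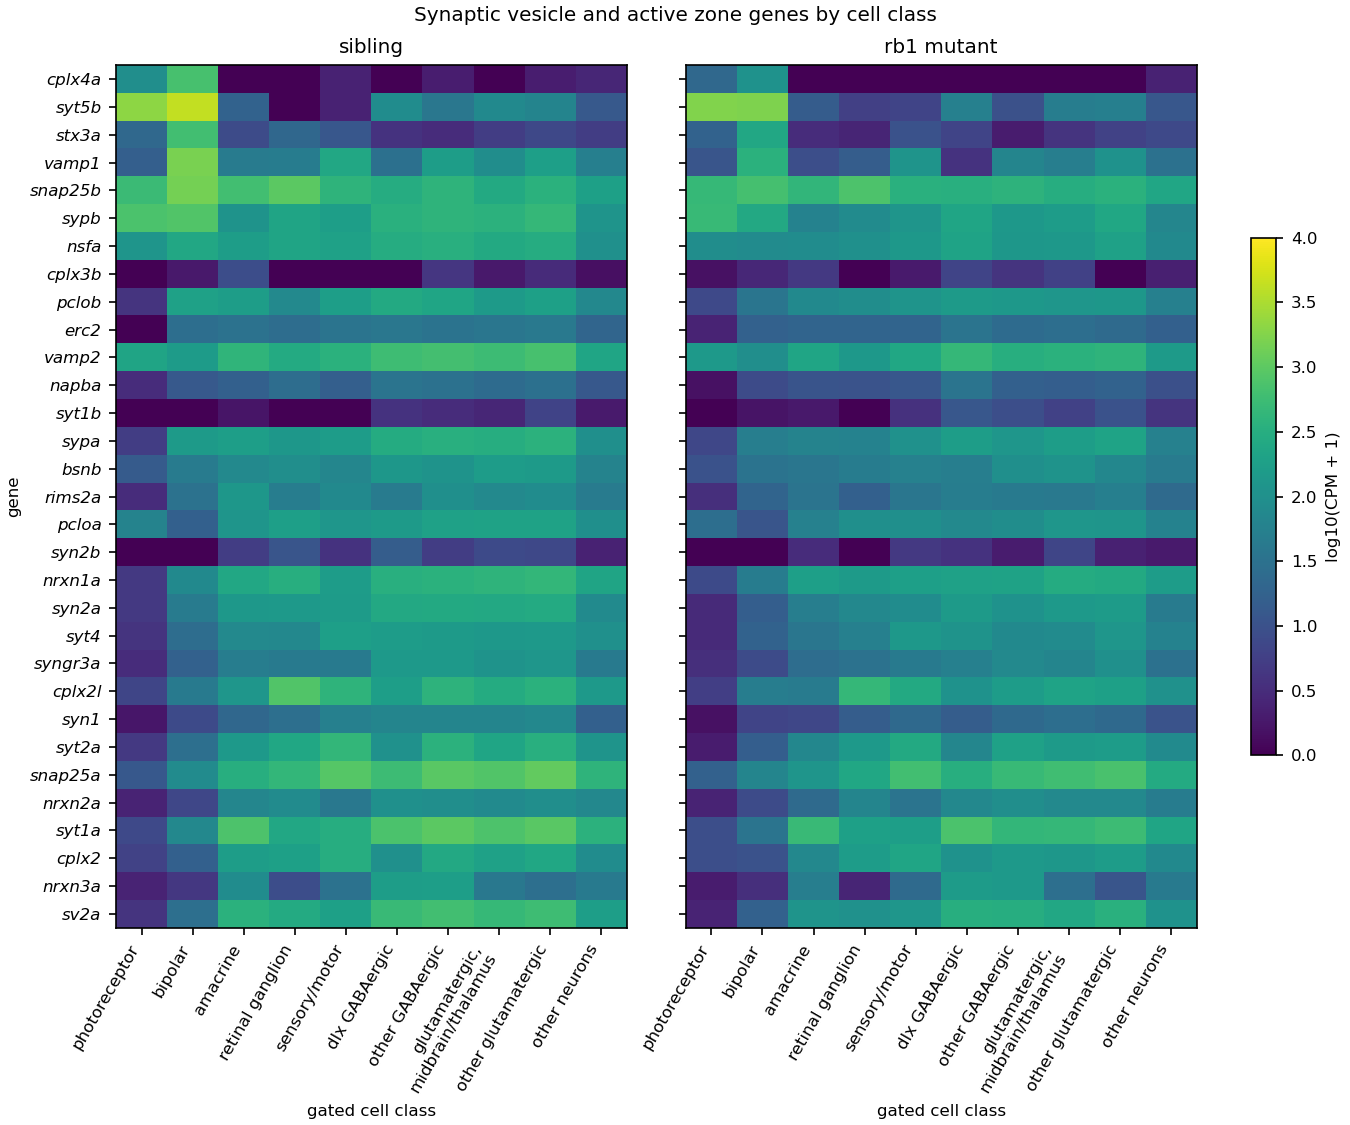
Level of 31 of the 33 genes, as log10 of CPM plus 1 (colour), in the 4 retinal and 6 brain neuron classes (columns) of the sibling (left) and mutant (right) library, with genes ordered by the difference between the first pair of columns and the brain classes in the sibling library. *syt5b* is bright in photoreceptor-like and bipolar-like cells, and *sv2a*, *syt1a* and *snap25a* are bright in brain classes. *cplx4a* and *stx3a* are brightest in bipolar-like cells, and *stx3a* has only 21.2 and 17.0 CPM in photoreceptor-like cells of siblings and mutants.

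Between genotypes, 15 genes had at least 20 UMIs in photoreceptor-like cells. Of these, 3 were at least 1.5-fold lower in the mutant library (14.6% of all genes) and 1 higher (8.57%). The median ratio was 0.729 against 0.912 over all genes, and 7 of the 15 had intervals below 1 and none above. The lowest was *cplx4a* at 0.228 (0.158 to 0.324), followed by *pcloa*, on 83 and 53 UMIs, at 0.437 (0.303 to 0.624). *sypb* had 1022 UMIs in siblings and 990 in mutants and passed the limit narrowly at 0.663 (0.606 to 0.724), while *syt5b* at 0.850 (0.809 to 0.894) and *snap25b* at 0.906 (0.822 to 1.00) did not. *stx3a* had a ratio of 0.802 (0.474 to 1.36) and *vamp2*, also not past the limit, 0.679 (0.576 to 0.802). The gene counted as higher was *cplx2*, on 7 and 16 UMIs (1.56, 0.608 to 4.49), whose interval includes 1 and whose ratio was 0.721 at 1000 UMIs. The summed level of the photoreceptor markers in these cells was 17003 CPM in siblings and 8393 CPM in mutants.

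In the sibling library, 22 of 26 genes were at least 2-fold higher in bipolar-like than in photoreceptor-like cells (27.1% of all genes). There was 1 at least 2-fold lower (19.8%), and in the mutant library the counts were 17 (20.7%) and 1 (14.7%) of 25. The gene that was lower was *pcloa* in both, at 0.260-fold and 0.392-fold. *vamp1* (ENSDARG00000031283), a synaptobrevin, stood apart: it had 1807 UMIs (1585 CPM) in bipolar-like cells of the sibling library against 21 UMIs (15.4 CPM) in photoreceptor-like cells, 103.2-fold (67.3 to 167.1). *stx3a* followed the same order, with 706 UMIs (619.3 CPM), 29.2-fold the photoreceptor level, and *pclob*, a Piccolo gene, had 221 UMIs (193.9 CPM), 66.2-fold. The *pclob* value rests on 4 UMIs in photoreceptor-like cells, a level not above non-neural cells beyond its interval. In the mutant library the 2 classes lay closer. There bipolar-like and photoreceptor-like cells had 354.7 and 10.5 CPM of *vamp1*, 245.9 and 17.0 CPM of *stx3a*, and 34.9 and 6.51 CPM of *pclob*. *sypb* (811.4 and 747.8 CPM) did not differ beyond its interval in the sibling library.

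The highest class of each gene reflects this. In the sibling library bipolar-like cells were highest for 7 of the 33 genes (among them *snap25b*, *stx3a*, *vamp1*, *syt5b*, *sypb* and *cplx4a*), ganglion-like cells for *cplx2l* (810.5 CPM) and amacrine-like cells for *rims2a* (128.9 CPM) and *cplx3b* (7.83 CPM). The other 23 were highest in a brain class, 9 of them in other glutamatergic neurons. The intervals of the highest class and the next did not overlap for 8 genes. Highest classes were computed for the listed genes only, so no share over all genes stands beside these counts. In the mutant library bipolar-like cells were highest for 3 genes, photoreceptor-like cells for 3 (among them *syt5b* and *sypb*), and 15 genes kept their highest class. The intervals of the highest class and the next did not overlap for 9 genes there. They did overlap for *syt5b*, at 1774 CPM in photoreceptor-like and 1706 CPM in bipolar-like cells.

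In bipolar-like cells, 23 of 27 genes were at least 1.5-fold lower in the mutant library (32.0% of all genes) and none higher (17.2%). The median ratio was 0.523 against 0.855 over all genes. For 17 of the 23 the interval lay below 1. *cplx4a* went from 776 UMIs (680.7 CPM) to 179 UMIs (109.5 CPM), a ratio of 0.161 (0.136 to 0.189), and the share of cells with a UMI at equal depth from 34.6% to 10.2%. *pclob* went from 193.9 to 34.9 CPM (0.180, 0.132 to 0.242) and *vamp1* from 1585 to 354.7 CPM (0.224, 0.203 to 0.246), with 60.9% and 25.4% of cells.

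In the same cells, *sypb* went from 811.4 to 256.9 CPM (0.317), *syn2a* from 44.7 to 14.7 CPM (0.328) and *sypa* from 149.1 to 49.5 CPM (0.332). *syt5b* went from 4904 to 2790 UMIs (4302 to 1706 CPM, 0.397), *stx3a* from 619.3 to 245.9 CPM (0.397) and *snap25b* from 1435 to 667.9 CPM (0.465, 0.431 to 0.503). *snap25a*, *bsnb* and *cplx2l* were not past the limit, with ratios of 0.762, 0.711 and 1.102. Bipolar-like cells differed in depth, with a median of 1320.5 UMIs in siblings and 2004 in mutants, and the summed level of the bipolar markers was 12364 and 8609 CPM. With gates set after thinning to 2000 UMIs, which leaves out shallower cells, the ratio of the sum was 0.513 and that of *snap25b* was 1.09. Scarce genes of the list turned direction there or under stricter gates, as did *sv2a* (3.65 on stricter gates) and *rims2a* (1.27 after thinning).

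Cells at the edge of the gates show how much the bipolar sum rests on them. Bipolar-like cells with exactly 2 list genes (245 and 287 cells) had 9645 and 3508 CPM, and those with more (503 and 379 cells) 12197 and 4898 CPM. Cells with 1 list gene, outside the gate, numbered 491 and 566 and had 2478 and 1703 CPM. Photoreceptor-like cells with exactly 3 markers (53 and 60 cells) had 1788 and 1837 CPM, and those with more 4760 and 3600 CPM. Of the 400 and 396 cells with 2 photoreceptor markers, outside that gate, 247 and 235 were in the bipolar gate.

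The paralogs divided between cell types in a way that held in both libraries. *syt5b* made up 99.7% and 99.6% of its UMIs with *syt1a* in photoreceptor-like cells, 98.4% and 98.1% in bipolar-like cells, 2.18% and 2.61% in amacrine-like cells and 5.33% and 5.70% in brain neurons. *cplx4a* made up 94.2% and 82.7% of its UMIs with *cplx2l* in photoreceptor-like cells and 93.9% and 69.4% in bipolar-like cells, and had no UMI in amacrine-like and ganglion-like cells. In both of these pairs the shares of photoreceptor-like and bipolar-like cells stood apart from those of the other classes.

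Other pairs split the ribbon cells themselves. *vamp1* gave 6.69% and 6.73% of its UMIs with *vamp2* in photoreceptor-like cells and 91.0% and 79.1% in bipolar-like cells. *pclob* gave 4.60% (1.27 to 11.4) and 19.7% (10.9 to 31.3) of Piccolo UMIs in photoreceptor-like cells and 92.5% and 77.0% in bipolar-like cells, with 48.6% and 52.6% in brain neurons. *sypb* gave 99.4% and 98.8% of synaptophysin UMIs in photoreceptor-like cells, 84.5% and 83.8% in bipolar-like cells and 54.5% and 53.3% in brain neurons. Paralogs share sequence, and the paper counted only reads with a unique mapping, which leaves out reads that fit both genes of a pair. The effect of this on the shares was not tested here.

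**Figure D5:**
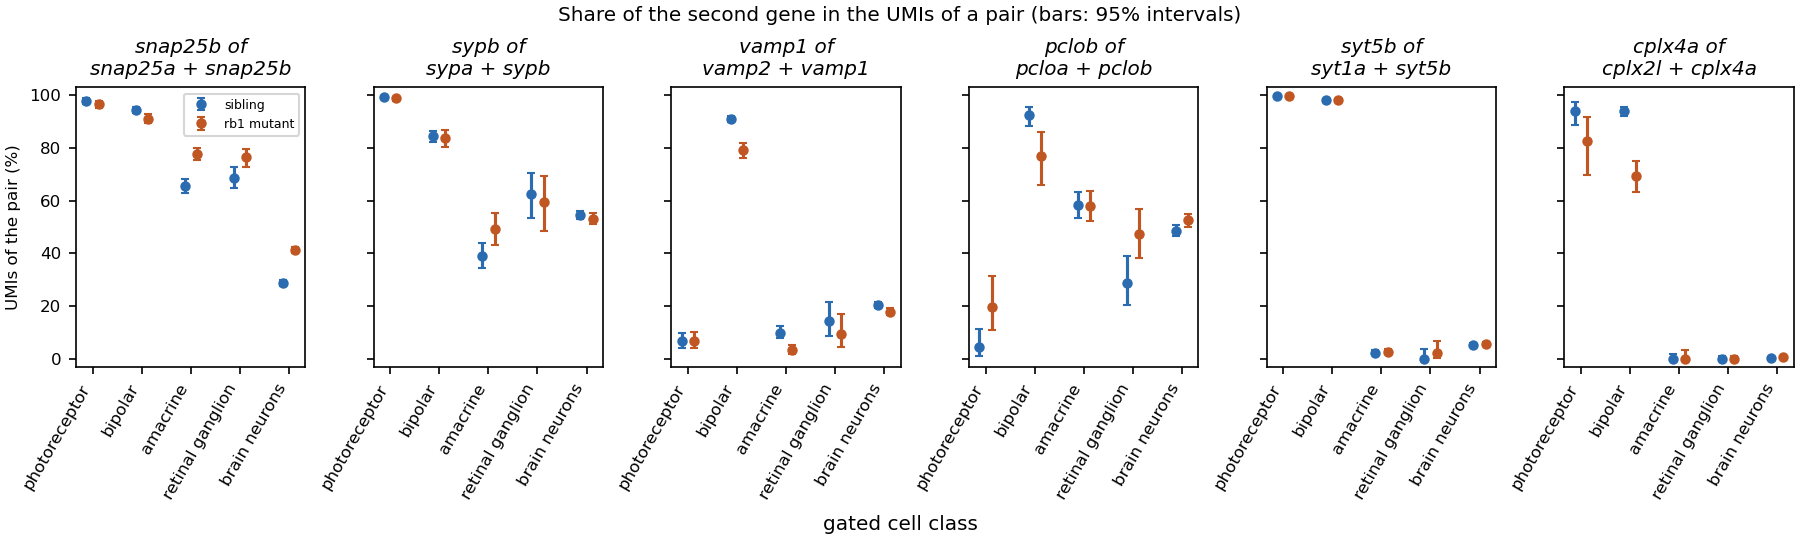
Share of the second gene in the UMIs of 6 gene pairs (vertical axis, percent) by gated class, for the sibling (blue) and mutant (orange) library, with 95% Clopper-Pearson intervals as bars. *syt5b* and *cplx4a* lie between 69.4% and 99.7% in photoreceptor-like and bipolar-like cells and at 5.70% or less in the other classes, and *vamp1* and *pclob* separate photoreceptor-like from bipolar-like cells.

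Amacrine cells make conventional synapses without ribbons. Of 27 genes, 23 were at least 1.5-fold lower in the mutant library (27.2% of all genes) and none higher (11.0%), with a median ratio of 0.488 against 0.861 over all genes. The lowest were *vamp1*, from 45.6 to 7.99 CPM (0.175, 0.098 to 0.300), *rims2a*, from 128.9 to 34.2 CPM (0.265) and *syn1*, from 20.6 to 6.21 CPM (0.301). *sv2a* had 0.331, *nrxn2a* 0.338 and *sypa* 0.342. *syt1a*, from 766.1 to 514.4 CPM (0.671), and *snap25b*, from 616.6 to 425.6 CPM (0.690), were not past the limit.

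Ganglion-like cells were the smallest class of the retina. Of 24 genes, 15 were at least 1.5-fold lower (20.1% of all genes) and none higher (14.3%), with a median ratio of 0.536 against 0.958. *vamp1* (18 and 9 UMIs, 0.303) and *rims2a* (19 and 10 UMIs, 0.319) were again lowest, followed by *sv2a* at 0.380, *sypb* at 0.395, *sypa* at 0.449 and *nrxn1a* at 0.461. *cplx2l*, the complexin of which these cells had the highest level, went from 810.5 to 460.3 CPM (0.568), and *snap25b* from 983.4 to 771.8 CPM (0.785).

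A second list of 63 genes of the same machinery, of which 54 were in the table, was read beside the first. In brain neurons 28 of its 44 genes with at least 20 UMIs were at least 1.5-fold lower in the mutant library (20.4% of all genes) and 1 (9.78% of all genes), *nrxn1b*, was higher, on 11 and 29 UMIs (2.06, 0.998 to 4.56). Those with the lowest ratios were *rimbp2* (20 and 6 UMIs, 0.234), *sncga*, a synuclein (0.269), *doc2b* (0.360), the priming factor *unc13a* (0.398) and the vesicle GTPase *rab3b* (0.423). In bipolar-like cells 23 of 26 were lower (32.0% of all genes), led by *syt5a*, from 80 to 4 UMIs (0.035), *doc2b*, from 30 to 2 UMIs (0.046), and the dynamin *dnm1a* (0.199). In photoreceptor-like cells 10 of 16 were lower (14.6% of all genes), with *syt5a*, from 19 to 4 UMIs, at 0.144, *rims2b* at 0.384 and *sv2ba* at 0.457. In amacrine-like cells 26 of 27 were lower (27.2% of all genes). In ganglion-like cells 13 of 21 were lower (20.1% of all genes) and 2 higher (14.3%), *syt11a* at 1.90 (1.04 to 3.66) and *otofa* at 1.60 (0.925 to 2.87).

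That list also held genes of photoreceptor-like cells. *sv2ba*, a vesicle glycoprotein gene, had 247 UMIs (180.7 CPM) there in the sibling library and 165 UMIs (82.6 CPM) in the mutant library, against 1 and 2 UMIs in all brain neurons, and 10 and 0 UMIs in bipolar-like cells. *sv2bb* showed the reverse, with 17 UMIs in photoreceptor-like and 464 UMIs (407.0 CPM) in bipolar-like cells of the sibling library, 32.7-fold (20.2 to 56.7) higher in the latter. *rab3aa*, a Rab3 GTPase, was 6.11-fold and 5.73-fold higher in photoreceptor-like cells than in brain neurons, and *syngr1a* 2.82-fold and 5.87-fold. Of the SV2 genes, *sv2ba* was thus the most counted in photoreceptor-like cells, *sv2bb* in bipolar-like cells and *sv2a* in brain neurons.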

How the data were processed

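Single-cell 3′ RNA sequencing was read as raw UMI counts per gene and barcode, which the authors deposited without normalization. Per the submitters' processing notes the reads were processed with Cell Ranger 5.1.0 and GRCz11, while the matrix headers give 5.0.0. How reads of paralogs were assigned follows that software.

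The limits of the study were applied: at least 200 and at most 3000 genes, fewer than 20000 UMIs, and a mitochondrial share below 15%. In place of the study's doublet caller, the 7.5% with the highest Scrublet score in each library were removed (scanpy 1.11.5, Python 3.11.15). Cells were gated by marker genes, and cells in conflicting gates left out (434 in siblings and 100 in mutants). A further 1377 and 1585 cells passed no gate. UMIs were summed per class and library. For equal depth each cell was thinned without replacement to 1000 UMIs and shallower cells left out. With 1 library per genotype no test was made: a gene was counted as higher or lower past 1.5-fold between libraries, or 2-fold between classes, if it had at least 20 UMIs in the comparison. On simulated counts for brain neurons, with 200 of 13626 genes changed 2-fold, 95.0% of them were called, 7.49% of unchanged genes were called and 95.6% of intervals held the true ratio. The simulated counts were Poisson draws around the class totals, without variation between cells or libraries. They therefore check the arithmetic of counting error and cannot show how the calls or intervals hold under such variation.

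All genes in the table enter the sums and counts, of which 2 are not reported singly here. Full values are given for at most the 6 furthest past the fold each way and for *snap25a*, *snap25b*, *syt1a*, *vamp2*, *sypb*, *syt5b*, *cplx4a* and *stx3a*. The genes, lists and gates were chosen with earlier results of these data known. Counts of genes by interval were made for the 2 gene lists only, with no share over all genes beside them. Alternatives covered filters, doublets, gates, depth, mitotic cells, scaling and minimum UMIs. No sequences are shown.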

Additional observations from a re-analysis of the deposited data

Results flagged for a closer look

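*snap25b* had ratios of mutant to sibling library on opposite sides of 1 in different classes: 1.23 (1.12 to 1.34) in other neurons and 0.465 (0.431 to 0.503) in bipolar-like cells. It drew attention because both intervals exclude 1 in opposite directions. With 1 library per genotype the difference between classes was not tested. The part of retinal neurons that missed their gates, among other neurons, was not tested either. With gates set on cells thinned to 2000 UMIs, the bipolar ratio was 1.09.

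Mitotic precursors are cells with at least 2 mitotic genes, no UMI of *elavl3* or *elavl4* and no other gate, and they belong to no comparison of neurons. Their summed level of the synaptic genes was 104.5 CPM (147 UMIs, 184 cells) in siblings and 460.8 CPM (745 UMIs, 252 cells) in mutants, a ratio of 4.41 (3.69 to 5.30), opposite in direction to all 10 neuron classes. At 1000 UMIs the ratio was 5.28 (3.597 to 8.02). At that depth the median precursor had 0 of these UMIs in both libraries. A minority held them: 1 of 179 cells in siblings and 28 of 245 in mutants had at least 3. *syt5b* had 7 UMIs (4.98 CPM) in siblings and 190 UMIs (117.5 CPM) in mutants, a ratio of 23.6 (11.2 to 59.5). *snap25b* had 27 and 192 UMIs (6.18, 4.12 to 9.63), *sypb* 3 and 50 UMIs (14.5, 4.68 to 72.7) and *stx3a* 9 and 49 UMIs (4.74, 2.30 to 11.0). *snap25a* (11 and 13 UMIs) had an interval that included 1. The summed photoreceptor markers in these cells were 67.6 and 198.5 CPM (6 and 7 of 17 markers with a UMI), and *vsx1* with *gnb3a* 239.6 and 492.9 CPM, and their part in the result was not tested. A higher sum in mutants was also seen in radial glia-like cells (ratio 1.59) and in cells with mitotic genes inside neuron classes. The latter had 282.5 and 1100 CPM in brain neurons, 297.2 and 2429 CPM in bipolar-like cells and 1473 and 1708 CPM in photoreceptor-like cells.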

How the results depend on the processing

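No paired analysis was possible because each genotype was 1 library. The summed level was lower in mutants in these 5 groups of cells under all alternatives run, with ratios of 0.595 to 0.673 in brain neurons, 0.736 to 0.874 in photoreceptor-like, 0.363 to 0.513 in bipolar-like, 0.508 to 0.59965 in amacrine-like and 0.572 to 0.669 in ganglion-like cells. Of the 1210 values computed for single genes under alternatives, 17 reversed and a further 146 moved without reversing. Of the 154 values for the main results, 4 reversed and a further 43 moved. The causes of these moves were not tested, beyond what each setting changes by construction.

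In brain neurons the ratio of the sum was 0.595 without upper limits on genes and UMIs, 0.630 at 1000 UMIs, 0.666 without cells with mitotic genes, 0.673 after scaling by the median of gene ratios and 0.640 with equal weight for the 6 classes. It was 0.615 with cells of mixed gates kept, an alternative chosen after seeing the data, as were all alternatives for bipolar-like, amacrine-like and ganglion-like cells. The difference in the share of brain neurons with 3 UMIs was −12.6 percentage points without cells with mitotic genes. In photoreceptor-like cells the ratio of the sum was 0.758 with stricter gates, 0.762 with all deposited barcodes, 0.874 with median scaling and 0.736 without the most abundant gene.

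Photoreceptor-like cells over brain neurons was the least stable comparison of sums. In siblings the ratio was 0.833 without doublet removal, 0.880 with gates on thinned cells, 0.873 with stricter gates, 0.838 with all barcodes, 0.905 without cells with mitotic genes, 0.823 with mixed gates kept, 0.406 without the most abundant gene and 0.641 with equal weight, and it reversed to 1.11 with median scaling. In mutants it was 1.13 with gates on thinned cells, 1.09 with stricter gates, 1.103 without cells with mitotic genes and 1.40 with median scaling, and it reversed to 0.994 at 1000 UMIs, 0.495 without the most abundant gene and 0.794 with equal weight.

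In bipolar-like cells the ratio was 0.401 without upper limits, 0.411 at 1000 UMIs, 0.513 with gates on thinned cells, 0.403 with stricter gates, 0.404 with all barcodes, 0.454 without cells with mitotic genes, 0.396 with mixed gates kept, 0.428 with median scaling and 0.363 without the most abundant gene. In amacrine-like cells it was 0.551 with gates on thinned cells, 0.510 with stricter gates, 0.566 without cells with mitotic genes, 0.59965 with median scaling and 0.508 without the most abundant gene. In ganglion-like cells it was 0.669 with stricter gates and 0.572 without the most abundant gene.

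The 24 genes lower in brain neurons became 16 to 25 over the alternatives. The 2 higher genes became 0 at 1000 UMIs, 1 without cells with mitotic genes and 0 with a minimum of 100 UMIs, and the 5 genes higher in photoreceptor-like cells of the mutant library became 3 with that minimum. Single genes that reversed were *cplx3b* in brain neurons at 1000 UMIs (0.843) and *cplx2* in photoreceptor-like cells without doublet removal (0.945), at 1000 UMIs (0.721) and with all barcodes (0.856). In bipolar-like cells, gates on thinned cells gave 1.09 for *snap25b*, 1.11 for *syt4*, 1.59 for *cplx2*, 1.27 for *rims2a*, 1.43 for *erc2* and 1.11 for *nrxn1a*. Stricter gates gave 2.29 for *syt1a*, 3.65 for *sv2a*, 5.90 for *cplx2*, 1.27 for *napba*, 1.97 for *pcloa* and 1.04 for *nrxn1a*, and thinning gave 1.54 for *syt4*. Genes with under 20 UMIs in a comparison were not read at this depth.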

Other observations

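Radial glia-like cells had 128 UMIs of the synaptic genes in siblings and 240 in mutants (145.2 and 230.4 CPM, ratio 1.59, 1.28 to 1.98), beside 166.3 and 66.5 CPM in non-neural cells of the same libraries (ratio of the latter 0.400, 0.357 to 0.448).

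In photoreceptor-like cells with mitotic genes the summed level was 1473 CPM (55 cells) in siblings and 1708 CPM (106 cells) in mutants, and in bipolar-like cells with mitotic genes 297.2 CPM (7 cells) and 2429 CPM (155 cells). In the mutant library, bipolar-like cells with mitotic genes thus had 1500 UMIs of synaptic genes.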
